A study of Mus musculus with 20 samples.

Results

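The 1092 sites described here held a C/EBPβ peak in unstimulated wild-type 3T3-L1 cells but had no peak once wild-type C/EBPβ was induced, although they had one when a mutant was induced or when a PARP inhibitor was added before induction. They were chosen by peak presence in deposited peak lists. Overlapping peaks of the 5 lists (1 bp or more) were joined, giving 23854 sites, and a site was taken if it held a peak of WT_-Dox, Mut_+Dox and WT_+Dox_+BYK and none of WT_+Dox. They are called missing sites below. Of the 8570 sites held by the 3 required lists, 12.7% lacked WT_+Dox (1092, Wilson 95% interval 12.1 to 13.5%). The other 7478 also held a WT_+Dox peak and are called kept sites. The Mut_-Dox list played no part in the choice: 427 missing sites had a Mut_-Dox peak and 665 had none, so only the former were missing from WT_+Dox alone.

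3T3-L1 is a mouse preadipocyte line that turns into fat cells when confluent cultures receive adipogenic hormones. All cells carried a doxycycline-inducible transgene for LAP, the activating isoform of C/EBPβ, with an HA tag, either wild type (WT) or mutated at its poly(ADP-ribosyl)ation sites (Mut). Confluent, contact-inhibited cultures received vehicle (WT_-Dox, Mut_-Dox), 1.00 µg/ml doxycycline (Dox) for 8 h (WT_+Dox, Mut_+Dox), or the PARP inhibitor BYK204165 1 h ahead of the same Dox treatment (WT_+Dox_+BYK). Each condition had 2 ChIP libraries and 2 input libraries, 20 in all, and has 1 deposited peak list. The sources used here do not say whether a line is 1 clone or whether replicates were separate cultures. The labels name the ChIP target as C/EBPβ, so a peak can come from the cells' own C/EBPβ or from the transgene. In the 2 conditions without Dox the lists held 10959 (WT) and 6898 (Mut) peaks. WT_+Dox held 12384, Mut_+Dox 17816 and WT_+Dox_+BYK 18371. With 1 list per condition there is no spread between replicates and no test, the read depth is unknown, and every interval below covers counting error only.

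C/EBPβ is a basic leucine zipper transcription factor that binds DNA as a dimer and is among the first factors to act when preadipocytes begin to differentiate. It induces Cebpa and Pparg, the regulators that then drive the fat cell programme. PARP-1 is a nuclear enzyme that uses NAD to attach chains of ADP-ribose to proteins, and this modification of C/EBPβ is known to reduce its binding to DNA. BYK204165 blocks that enzyme, and the mutant lacks the modified residues. The lists therefore set binding recorded with the inhibitor, or with the residues mutated in the transgene alone, beside binding recorded with neither. The cells' own C/EBPβ was not mutated in either line.

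Most missing sites lay away from promoters, and the promoters they covered are shown here because they are the stretches for which reference sequence was used. A missing site covered 1 or more promoter windows (250 bases before to 50 after a RefSeq start, 300 in all) at 55 of 1046 sites, or 5.26% (4.06 to 6.78%), against 7.51% of kept sites (544 of 7242). Over all sites the share was 5.87% (1353 of 23056), within the interval of the missing sites. The windows were searched on both strands for the C/EBP letters TTNNGCAA, which include the palindrome TTGCGCAA, and for TGATGCAA, a composite of C/EBP and ATF letters. The first 3 sequences are the only ones with C/EBP letters among the 8 windows whose sites ranked highest by score. The next 2 hold none of the C/EBP, C/EBP-ATF, AP-1 or CRE letters, and Gadd45b, at rank 16, lay outside those 8. The last, chosen after its letters were seen, is the 1 window of a missing site with the full palindrome. The printed set thus holds C/EBP letters more often than all 63 windows, whose shares are given below. Each runs 5′ to 3′ on the gene's strand in the build GRCm38.p6 (mm10), from RefSeq, with capitals marking matches to the C/EBP, C/EBP-ATF, AP-1 (TGANTCA) or CRE (TGACGTCA) letters. They are the windows of Sephs2 (chr7:127274010-127274309, minus strand), an enzyme that makes the selenium donor for selenoproteins, Rnase2a (chr14:51256063-51256362, minus strand), a secreted ribonuclease of eosinophils, Spin1 (chr13:51101297-51101596, plus strand), a reader of histone methylation, Selenop (chr15:3270517-3270816, plus strand), the plasma selenium carrier, Gadd45b (chr10:80929841-80930140, plus strand), a stress-response protein, and Clec12a (chr6:129349994-129350293, plus strand), a C-type lectin receptor of myeloid cells.

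Sephs2: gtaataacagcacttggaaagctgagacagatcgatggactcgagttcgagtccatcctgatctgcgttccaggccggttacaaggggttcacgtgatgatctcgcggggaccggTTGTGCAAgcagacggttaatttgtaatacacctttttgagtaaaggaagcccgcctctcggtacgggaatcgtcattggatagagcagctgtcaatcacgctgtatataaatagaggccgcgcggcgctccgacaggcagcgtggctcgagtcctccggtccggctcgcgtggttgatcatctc
Rnase2a: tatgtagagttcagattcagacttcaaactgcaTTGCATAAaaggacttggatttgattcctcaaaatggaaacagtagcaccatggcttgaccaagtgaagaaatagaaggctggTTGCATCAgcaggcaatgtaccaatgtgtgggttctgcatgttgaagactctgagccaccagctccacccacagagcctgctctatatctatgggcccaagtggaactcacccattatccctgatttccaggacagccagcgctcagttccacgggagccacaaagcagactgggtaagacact
Spin1: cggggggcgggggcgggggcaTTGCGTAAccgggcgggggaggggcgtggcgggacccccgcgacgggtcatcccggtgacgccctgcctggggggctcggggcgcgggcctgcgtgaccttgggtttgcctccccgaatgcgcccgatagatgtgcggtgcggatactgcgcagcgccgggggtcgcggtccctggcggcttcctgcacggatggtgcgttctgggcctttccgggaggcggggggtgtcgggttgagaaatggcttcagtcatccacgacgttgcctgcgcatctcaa
Selenop: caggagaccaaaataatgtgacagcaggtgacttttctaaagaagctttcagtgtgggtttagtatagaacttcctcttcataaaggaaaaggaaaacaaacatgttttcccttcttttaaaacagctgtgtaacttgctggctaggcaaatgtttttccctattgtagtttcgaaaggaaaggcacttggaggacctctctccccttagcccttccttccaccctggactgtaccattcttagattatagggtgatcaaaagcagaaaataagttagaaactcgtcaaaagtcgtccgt
Gadd45b: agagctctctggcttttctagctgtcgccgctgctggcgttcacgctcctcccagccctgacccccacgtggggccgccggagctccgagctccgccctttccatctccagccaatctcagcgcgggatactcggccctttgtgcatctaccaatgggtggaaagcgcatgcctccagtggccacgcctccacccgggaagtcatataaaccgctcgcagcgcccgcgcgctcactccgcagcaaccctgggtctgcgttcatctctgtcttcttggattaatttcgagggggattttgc
Clec12a: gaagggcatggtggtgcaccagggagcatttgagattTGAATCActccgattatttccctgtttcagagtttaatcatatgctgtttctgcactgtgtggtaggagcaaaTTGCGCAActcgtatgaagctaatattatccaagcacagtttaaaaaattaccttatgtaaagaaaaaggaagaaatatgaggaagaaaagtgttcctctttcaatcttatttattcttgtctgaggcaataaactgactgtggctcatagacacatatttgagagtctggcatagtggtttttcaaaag

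In the Sephs2 window the C/EBP letters began 135 bases before the start, and this site scored 116.8 in WT_-Dox, 220.0 in Mut_-Dox, 210.7 in Mut_+Dox and 258.9 in WT_+Dox_+BYK. Scores are those the authors deposited with each peak, on a scale that no label names, and no peak scored below 50.0. They rank peaks within a list only. The Rnase2a window held C/EBP letters at -217 and the C/EBP-ATF letters at -134, and its site scored 109.9 in WT_-Dox, 165.3 in Mut_+Dox and 150.2 in WT_+Dox_+BYK, with no Mut_-Dox peak. Spin1 had its C/EBP letters at -229 and scores of 118.3, 98.0, 164.8 and 108.9 in WT_-Dox, Mut_-Dox, Mut_+Dox and WT_+Dox_+BYK. The Clec12a site was weak in all 3 holding lists, at 51.5, 68.6 and 86.6 in WT_-Dox, Mut_+Dox and WT_+Dox_+BYK. Sites whose promoter window held no such letters could score as high as those whose window held them. The rest of each site was not searched. The Selenop site scored 105.9, 76.5, 172.9 and 201.7 in WT_-Dox, Mut_-Dox, Mut_+Dox and WT_+Dox_+BYK, and that of Gadd45b 106.0, 61.1, 130.5 and 74.1 in the same order. At the promoter of Ftl1, the ferritin light chain, the scores were 106.4 in WT_-Dox, 305.5 in Mut_+Dox and 239.0 in WT_+Dox_+BYK, with no Mut_-Dox peak. The site at Xrn2, a nuclear exoribonuclease that ends transcription, scored 213.4, 181.4, 164.7 and 154.5 in WT_-Dox, Mut_-Dox, Mut_+Dox and WT_+Dox_+BYK.

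For TTNNGCAA the share under missing promoter sites had a wide interval, which included the share under kept ones. These letters stood in 21 of the 63 windows that missing sites covered, 33.3% (22.9 to 45.6%). Windows can overlap, and those of Miip and Fv1 lie in 1 site and share 1 match that is counted for both. The share was 29.6% (26.2 to 33.1%) in the 673 windows covered by kept sites, 26.9% under all sites and 10.8% of all 32851 promoter windows. The palindrome stood in 1.59% (0.281 to 8.46%) of missing and 4.61% (3.26 to 6.46%) of kept windows, against 0.183% of all promoters. AP-1 letters were in 6.35% of missing and 8.02% of kept windows, near the 7.81% of all promoters. The CRE letters were in 0 of the 63 windows, which allows a share of up to 5.75%, and in 2.38% of kept windows. The mean GC content was 55.4% under missing and 56.6% under kept sites. A match is a description of letters, and no binding was assigned from it.

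Missing sites were weak peaks where they were present. Their scores chose the sites in part, since a peak has to pass the authors' threshold to be listed, so these values describe the sites and test nothing. Ranked within each list, from 0 for its lowest to 100 for its highest site, the median missing site stood at percentile 32.6 in WT_-Dox, 41.5 in Mut_+Dox and 39.7 in WT_+Dox_+BYK. The median kept site stood at 63.7, 77.3 and 77.9. Percentiles of lists of different length are not comparable between lists. At 10959 peaks per list the medians of missing sites were 42.3, 34.8 and 31.0, with WT_-Dox now the highest and no longer the lowest. The set of sites differed as well, since 149 of those 504 sites had a WT_+Dox peak in the full list. The median scores of missing sites were 75.3, 90.6 and 87.6 in these lists, whose median sites scored 102.1, 106.6 and 106.5. Above the list's median stood 274 (25.1%), 400 (36.6%) and 353 (32.3%) of the missing sites. Among the highest-scoring 10% of each list there were 0, 2 and 1 missing sites. A score of 75 or more in all 3 lists was reached by 309 missing sites (28.3%), and 82 (7.51%) lay above the median of all 3. At the other end, 259 (23.7%) scored under 55 in at least 1 list, just inside the presence rule. Just outside it were 236 kept sites (3.16%) with a WT_+Dox score under 55.

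**Figure D1:**
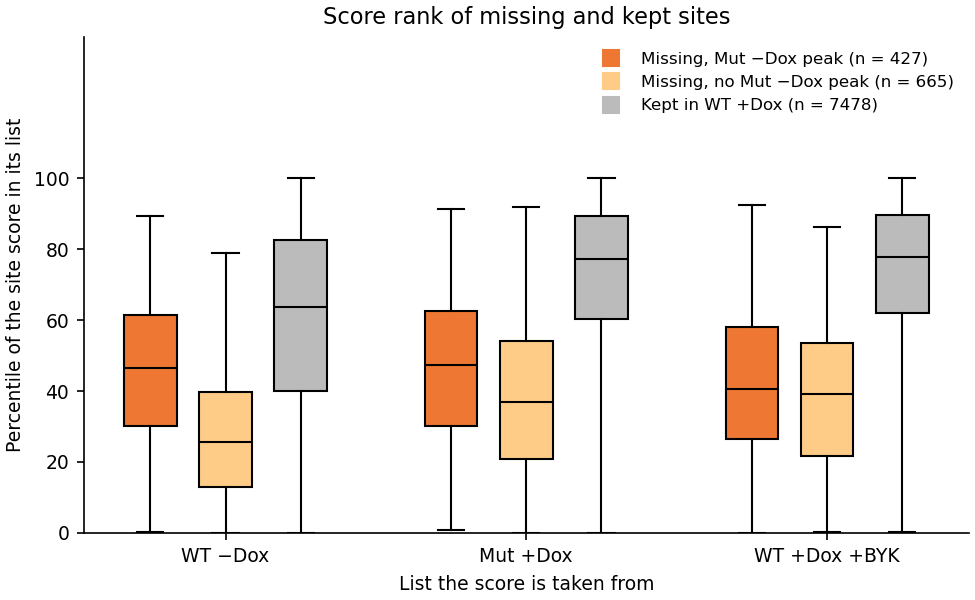
Score percentile within each holding list (vertical axis, 0 lowest and 100 highest) for 427 missing sites with and 665 without a Mut_-Dox peak and 7478 kept sites; boxes run from the lower to the upper quartile with a line at the median, and whiskers to the lowest and highest site. Medians are 46.4 and 25.5 for the missing subgroups in WT_-Dox, 47.4 and 37.0 in Mut_+Dox and 40.7 and 39.2 in WT_+Dox_+BYK, against 63.7, 77.3 and 77.9 for kept sites.

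The stronger a site was without Dox, the less often it was missing. With the 8570 sites in 10 equal parts by WT_-Dox score, 258 of 856 sites were missing in the lowest part, 30.1% (27.2 to 33.3%), and 12.4% in part 5. The share was 1.05% (0.553 to 1.98%) in part 9 and 0 of 857 in the highest, which allows up to 0.446%. By Mut_+Dox score the lowest part lacked WT_+Dox at 45.2% of its sites and by WT_+Dox_+BYK score at 48.2%, and the highest parts at 0.

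**Figure D2:**
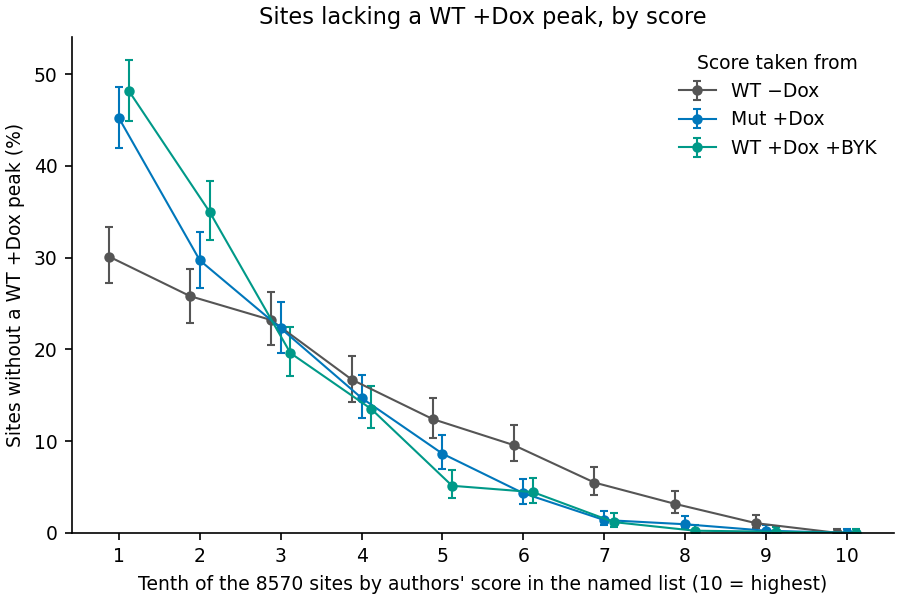
Percent of three-list sites with no WT_+Dox peak (vertical axis) in 10 equal parts by the authors' score in WT_-Dox, Mut_+Dox or WT_+Dox_+BYK (horizontal axis, 10 highest). Points are shares with Wilson 95% intervals, and the share is 30.1%, 45.2% and 48.2% in the lowest parts and 0 in the highest.

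The 3 holding lists ordered the missing sites differently. Across missing sites the Spearman correlation of scores was 0.35 between Mut_+Dox and WT_+Dox_+BYK, 0.26 between WT_-Dox and Mut_+Dox and 0.16 between WT_-Dox and WT_+Dox_+BYK. Across kept sites, which span a wider range of scores, it was 0.79, 0.66 and 0.64. These are correlations over sites of 1 list each, and neighbouring sites are not independent. Missing sites had a median width of 922 bp (667 to 5762) against 1047 bp for kept sites, and 1084 of 1092 held exactly 1 peak of each of the 3 lists.

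A Mut_-Dox peak, the measure the rule left free, was less common at missing than at kept sites. It was present at 427 of 1092 missing sites, 39.1% (36.3 to 42.0%), and at 69.7% of kept sites (68.6 to 70.7%), a difference of -30.6 points (-33.6 to -27.4). Over all 8570 sites of the 3 lists the share was 65.8%. Among the sites that lacked Mut_+Dox or WT_+Dox_+BYK in place of WT_+Dox the share was also low, at 22.7% (18.2 to 28.0%) and 38.3% (32.1 to 44.8%). At 6898 peaks per list the shares at missing and kept sites were 76.6% and 86.5%. The difference was smaller among sites of like score. With the sites in 5 equal parts by their mean percentile over the 3 lists, Mut_-Dox peaks were at 30.5% (27.3 to 34.0%) of missing and 35.1% (32.2 to 38.1%) of kept sites in the lowest part. The difference there was -4.56 points (-9.00 to -0.0406). In the next part up the shares were 49.6% and 46.7%, a difference of 2.95 points (-3.50 to 9.41), and in the middle part 68.8% and 65.1%, a difference of 3.73 points (-6.53 to 12.6). In the part above it they were 81.8% (9 of 11) and 86.0%. The lowest part held 717 of the missing sites, and the highest 2 parts held 11 and 1. The missing sites with a Mut_-Dox peak stood at median percentiles of 46.4, 47.4 and 40.7 in WT_-Dox, Mut_+Dox and WT_+Dox_+BYK. Those without one stood at 25.5, 37.0 and 39.2.

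The same rule was applied with another list in the place of WT_+Dox. Among sites held by the other 3 lists, 277 lacked only Mut_+Dox, a share of 3.57% (3.18 to 4.01%), and 222 lacked only WT_+Dox_+BYK, 2.88% (2.53 to 3.28%), in both cases whatever Mut_-Dox held. A further 2646, or 26.1% (25.3 to 27.0%), lacked WT_-Dox. WT_+Dox is by far the shortest of the 3 induced lists. When each list was reduced to its 6898 highest-scoring peaks, the length of the shortest, the shares were 8.21% (7.43 to 9.07%) for WT_+Dox, 7.70% (6.94 to 8.53%) for Mut_+Dox and 7.05% (6.32 to 7.86%) for WT_+Dox_+BYK. At 10959 peaks per list they were 7.46%, 7.24% and 6.69%. The share lacking WT_+Dox was thus the highest of the 3 in each case, by a margin that depended on list length. With all peaks it was higher by 9.17 points (8.35 to 9.99) than for Mut_+Dox and by 9.86 points (9.06 to 10.7) than for WT_+Dox_+BYK. At 10959 peaks per list the margins were 0.220 points (-0.662 to 1.10) and 0.773 points (-0.0935 to 1.64), and at 6898 they were 0.514 points (-0.632 to 1.66) and 1.16 points (0.0392 to 2.29). These intervals treat the sets as independent, although most of their sites are shared. With a score of 75 or more required in all lists, which leaves their lengths unequal, the shares were 13.7%, 2.93% and 2.42%. The sites also changed: of 354 missing sites at 6898 peaks per list, 295 (83.3%) had a WT_+Dox peak in the full list. Whether the number of listed WT_+Dox peaks follows from read depth, enrichment or binding was not tested. Against single lists, 25.5% of WT_-Dox sites, 39.4% of Mut_+Dox sites and 39.7% of WT_+Dox_+BYK sites lacked WT_+Dox.

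**Figure D3:**
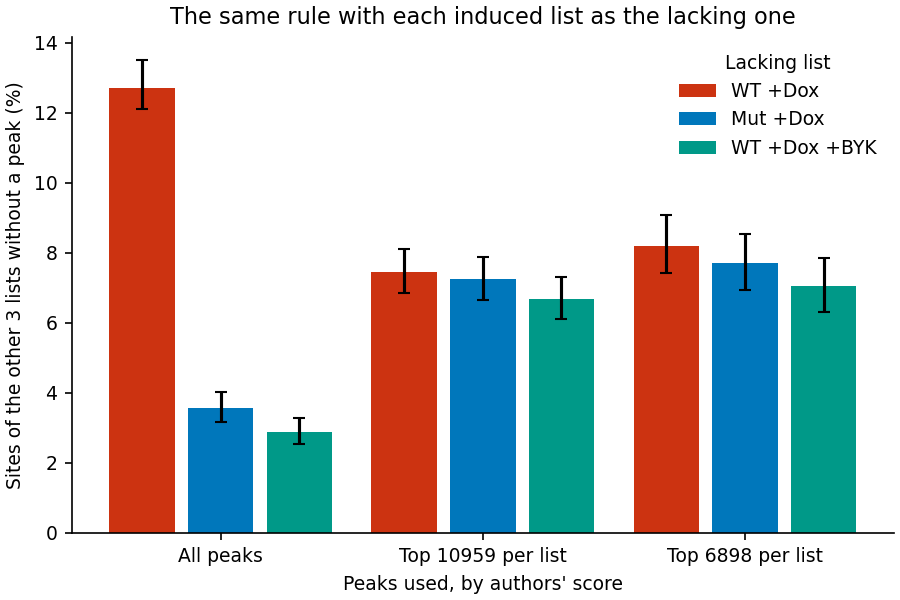
Percent of the sites of the other 3 lists that lack WT_+Dox, Mut_+Dox or WT_+Dox_+BYK (vertical axis), with all peaks and with lists reduced to equal length. Bars are shares with Wilson 95% intervals, at 12.7%, 3.57% and 2.88% with all peaks and at 8.21%, 7.70% and 7.05% with 6898 peaks per list.

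Position in the genome was not used by the rule. The midpoint lay inside a protein-coding gene at 508 missing sites, 46.5% (43.6 to 49.5%), against 47.7% of kept sites. It lay within 1 kb of a gene end at 88 missing sites, 8.06% (6.59 to 9.82%), against 9.96% of kept sites, a difference of -1.90 points (-3.53 to -0.0198). In the lowest of 5 equal parts by mean percentile the difference was -2.99 points (-5.81 to -0.0519). In the higher parts the intervals included 0. Within 1 kb of a RefSeq start, chromosome 18 left out, lay 8.70% (7.14 to 10.6%) of missing and 10.2% (9.53 to 10.9%) of kept sites. At 262 sites, 24.0%, no gene lay within 50 kb, against 20.9% of kept sites, a difference of 3.10 points (0.492 to 5.88). Of missing sites with a Mut_-Dox peak 5.85% lay within 1 kb of a gene end and of those without one 9.47%, a difference of -3.62 points (-6.71 to -0.303).

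Over all 23854 sites 8.76% lay within 1 kb of a gene end, near the 8.06% of missing sites. Sites that lacked another induced list were above both. Of the sites lacking only Mut_+Dox 18.8% lay within 1 kb of a gene end, and of those lacking only WT_+Dox_+BYK 17.6%. Of those lacking only WT_-Dox 5.37% did. The differences from the first 2 of these sets, missing sites first, were -10.7 points (-15.9 to -6.20) and -9.51 points (-15.2 to -4.73). At 10959 peaks per list the shares were 6.55%, 17.0% and 13.4% for sites lacking WT_+Dox, Mut_+Dox and WT_+Dox_+BYK, with differences of -10.5 points (-14.5 to -6.50) and -6.85 points (-10.8 to -3.05). At 6898 the shares were 9.60%, 16.1% and 13.7%. The difference was then -6.46 points (-11.5 to -1.45) from sites lacking Mut_+Dox and -4.06 points (-9.15 to 0.851) from sites lacking WT_+Dox_+BYK. The last interval includes 0.

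Few missing sites lay directly beside a WT_+Dox peak. The nearest WT_+Dox site lay a median of 31.2 kb from the midpoint, and 235 missing sites (21.5%) had one within 10 kb. For kept sites the nearest other WT_+Dox site lay a median of 25.1 kb away, with 27.0% within 10 kb. A gap of under 250 bp to a WT_+Dox peak was found at 13 missing sites (1.19%). One of these was near Loxl1, which crosslinks elastin, where a WT_+Dox peak scoring 256.9 stood 240 bp away. Another was near Magi1, a scaffold of cell junctions, with a peak scoring 57.4 at 60 bp. Both were chosen after their values were seen. From a missing site to the nearest other one the median distance was 471.1 kb, and 101 (9.25%) had another within 50 kb. This distance depends on the number of sites, and no other set of equal size was set beside it. The share of three-list sites that were missing ran from 7.45% on chromosome 5 (35 of 470) to 19.7% on chromosome X (28 of 142).

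The highest-ranked missing site lay 77.7 kb from Cav2, which encodes a caveolin, a structural protein of the membrane pits that are abundant in fat cells (chr6:17200626-17206387, 5762 bp, outside any gene). It scored 307.3 in WT_-Dox, 187.4 in Mut_-Dox, 245.9 in Mut_+Dox and 424.1 in WT_+Dox_+BYK, where 2 peaks were merged into it. The nearest WT_+Dox peak began 22.7 kb from its edge. The site nearest to Slc1a3, a glutamate transporter (chr15:8563101-8564192, 70.5 kb away), scored 258.1, 172.8, 308.0 and 230.6 in WT_-Dox, Mut_-Dox, Mut_+Dox and WT_+Dox_+BYK. That nearest to Slc8a1, the sodium-calcium exchanger (chr17:81898646-81899790, 160.8 kb away), scored 275.1, 199.2, 307.0 and 168.0. These 3 sites were well above the lowest listed score in every list but WT_+Dox.

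Of the next 7 sites, 2 had no Mut_-Dox peak. The site nearest to Cblb, a ubiquitin ligase that restrains receptor signalling (chr16:51966700-51967698, 64.0 kb away), scored 167.3 in WT_-Dox, 414.3 in Mut_+Dox and 170.4 in WT_+Dox_+BYK, with no Mut_-Dox peak. The site nearest to Nmbr, a neuropeptide receptor 542.5 kb away, scored 104.9, 70.3, 405.2 and 291.4 in WT_-Dox, Mut_-Dox, Mut_+Dox and WT_+Dox_+BYK. The site nearest to Stard3nl, a protein of late endosomes 71.2 kb away, scored 244.0, 367.9, 155.9 and 181.9 in the same order. That nearest to Cdc42ep3, an effector of the GTPase Cdc42 (106.3 kb away), scored 286.5 in WT_-Dox, 199.2 in Mut_-Dox, 154.0 in Mut_+Dox and 169.3 in WT_+Dox_+BYK. Celf2, a regulator of splicing, held its site inside the gene (152.6, 249.9 and 212.5 in WT_-Dox, Mut_+Dox and WT_+Dox_+BYK, with no Mut_-Dox peak). The other sites of the first 10 were nearest to Bbs12, a protein of the ciliary base, and Fbln7, a matrix fibulin. Of the lowest-ranked, those nearest to AW209491 (364.6 kb away) and Gap43 (40.2 kb away) scored between 50.5 and 58.8 in the 3 holding lists.

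Within 50 kb of a missing site stood 1508 protein-coding genes, 6.89% of 21887. Of these, 1419 had 1 missing site, 81 had 2 and 8 had 3. A WT_+Dox site was also within 50 kb at 1066 of them, and 442 had none. Long genes hold more sites and neighbours share them, so these counts follow position and say nothing about expression. The genes with 3 were Gadd45a, Mcc, Nrg1, Lama2, Fndc3b, Glis3, Dgki and Slit3. Gadd45a encodes a growth arrest and DNA damage protein, Nrg1 a ligand of ErbB receptors, Lama2 a laminin chain, Glis3 a zinc finger factor and Slit3 a secreted guidance protein. All 8 also had a WT_+Dox site. Genes with 2 missing sites and no WT_+Dox site included Ep300, a histone acetyltransferase and coactivator, Piezo1, a mechanically gated channel, and Rspo2, a secreted enhancer of Wnt signalling. These 3 were chosen after their values were seen.

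Gadd45a (chr6:67035096-67037407) is much the shortest of the genes with 3. Of 10 sites within 50 kb, 3 were missing, 4 were kept and 3 had another pattern. The missing site 36.2 kb from the gene, inside Gng12, scored 159.4 in WT_-Dox, 71.7 in Mut_-Dox, 139.6 in Mut_+Dox and 224.8 in WT_+Dox_+BYK. The one 4.91 kb away scored 76.7, 64.8, 83.5 and 58.3, and 0.893 kb from it a WT_+Dox peak stood in a kept site scoring 305.9 in that list. The missing site 40.4 kb away scored 52.7 in WT_-Dox, 99.2 in Mut_+Dox and 69.8 in WT_+Dox_+BYK, with no Mut_-Dox peak. The site over the gene itself was kept and scored 57.9 in WT_-Dox, 64.8 in Mut_-Dox, 166.6 in WT_+Dox, 241.2 in Mut_+Dox and 178.5 in WT_+Dox_+BYK. At this locus strong and weak sites were kept, and a site of 159.4 in WT_-Dox was missing while one of 164.8 was kept.

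Pparg, the master regulator of fat cell differentiation, had 20 sites within 50 kb, of which 1 was missing, 9 were kept and 10 had another pattern. The missing site (chr6:115339787-115340770) lay 20.6 kb outside the gene and scored 104.3 in WT_-Dox, 71.1 in Mut_-Dox, 109.2 in Mut_+Dox and 132.8 in WT_+Dox_+BYK. The kept sites ranged from 55.3 to 1251.4 in WT_-Dox, and 8 of the 9 scored above the missing site there.

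**Figure D4:**
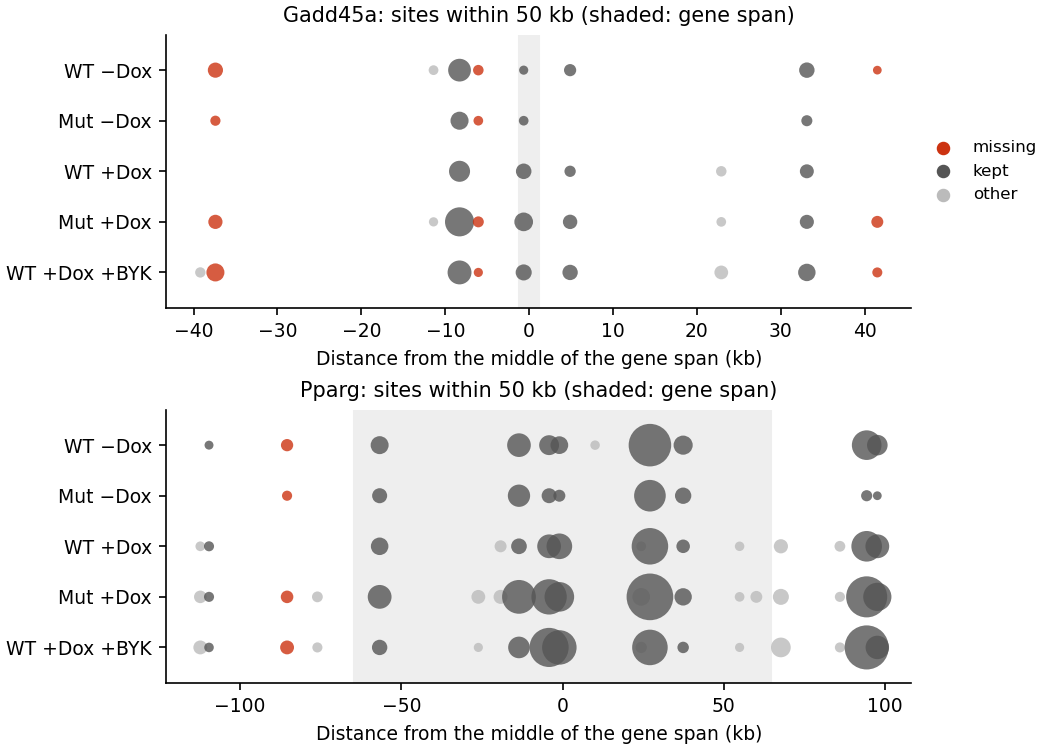
Sites around Gadd45a and Pparg by distance from the gene's middle (horizontal axis, kb) in the 5 lists (rows), with dot area proportional to the authors' score. Missing sites are red, kept sites dark grey and other sites light grey; 3 of 10 sites at Gadd45a and 1 of 20 at Pparg are missing, and the WT_+Dox row has no red dot.

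In none of the gene lists did the share of missing sites, per site, differ from that over all three-list sites beyond its counting interval. In 11 lists of genes relevant to this tissue and treatment, 40 of 251 genes (15.9%, 11.9 to 21.0%) had a missing site within 50 kb, against 6.89% of all protein-coding genes. These shares do not compare like with like. A site of the 3 lists lay within 50 kb of 171 of the 251 genes, but of only 8259 of all 21887. Among genes with any site of the 3 lists the share was 23.4% (17.7 to 30.3%) in the lists and 18.3% (17.4 to 19.1%) over all 8259 such genes. For 4 lists of markers of other cell types (hepatocyte, neuron, skeletal muscle and blood) it was 3 of 19 genes, 15.8%. The share of three-list sites that were missing was within its counting interval of 12.7% in each of the 15 lists. Those intervals were wide and do not show likeness. They ran from 8.18 to 36.7% for lipid and secreted factors (5 of 27 sites) and from 0.572 to 16.2% for glucocorticoid receptor targets (1 of 31). Of the panel of 12 genes, Pparg, Adipoq and Lpl had 1 missing site each. Cebpa, Cebpb, Cebpd, Fabp4, Klf5, Srebf1, Parp1, Nampt and Il6 had 0, and of these Cebpb, Cebpd and Fabp4 had no WT_-Dox site to be missing. Klf5 and Srebf1 had a WT_-Dox site but no Mut_+Dox site, so the rule could not take one there. They had no WT_+Dox site either.

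**Figure D5:**
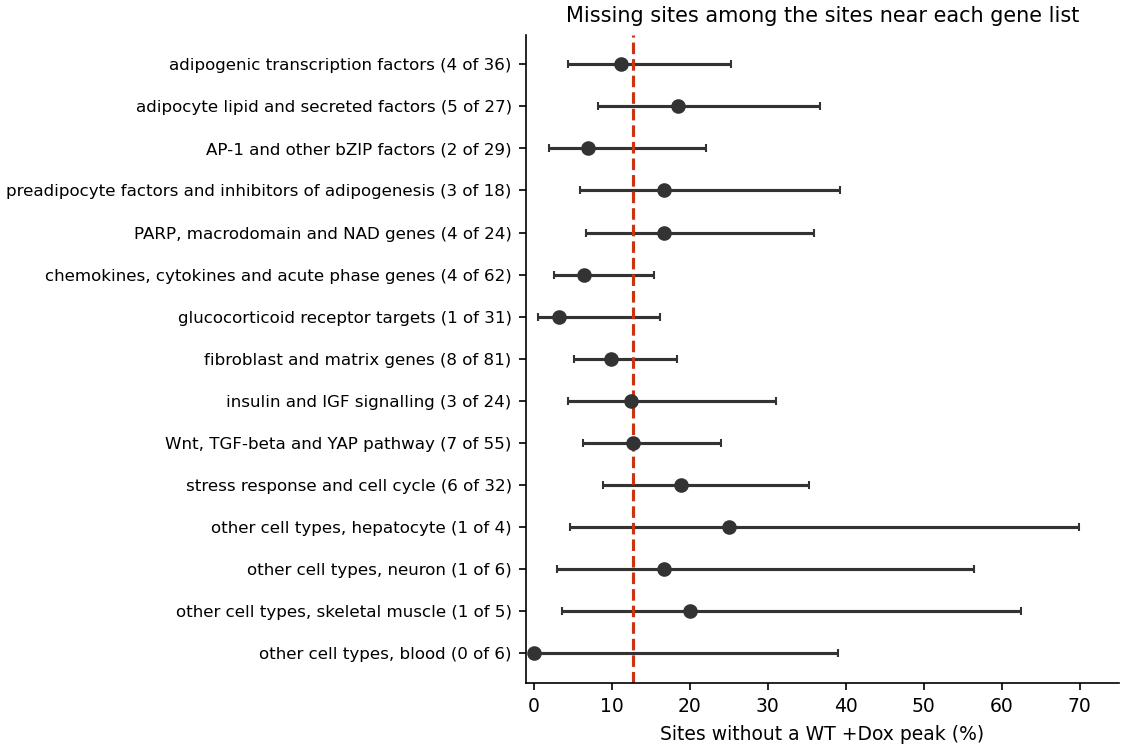
Percent of the three-list sites near the genes of each list that were missing (horizontal axis), with Wilson 95% intervals. The dashed line marks 12.7%, the share over all three-list sites, and every list's interval includes it.

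Gene counts per list, here and below, stand beside 6.89% of all protein-coding genes and 18.3% of genes with a site of the 3 lists. Among adipogenic transcription factors 4 of 20 genes had a missing site. Stat5b, a signal transducer of growth hormone that favours adipogenesis, held one inside the gene that scored 69.1 in WT_-Dox, 66.8 in Mut_-Dox, 100.5 in Mut_+Dox and 105.7 in WT_+Dox_+BYK. It had no WT_+Dox site within 50 kb. Zfp423, a determinant of preadipocyte identity, held one of 73.3, 61.1, 79.4 and 83.8 in the same order. The site in Rxra, the DNA-binding partner of PPARγ, scored 61.4 in WT_-Dox, 50.9 in Mut_+Dox and 80.7 in WT_+Dox_+BYK. All 3 sites were below the median score of each of these lists.

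Of 26 genes for lipid storage and secreted fat cell factors, 5 had a missing site. That of Adipoq, the hormone adiponectin, lay 2.01 kb from the gene and was weak, at 55.3 in WT_-Dox, 64.0 in Mut_+Dox and 54.7 in WT_+Dox_+BYK, with no Mut_-Dox peak. That of Lpl, the lipase that frees fatty acids from circulating lipoproteins, lay 46.9 kb away and scored 114.8, 133.5, 154.3 and 70.1 in WT_-Dox, Mut_-Dox, Mut_+Dox and WT_+Dox_+BYK. Gpam, which starts triglyceride synthesis, held one inside the gene (76.1, 129.0 and 196.3 in WT_-Dox, Mut_+Dox and WT_+Dox_+BYK). Dgat2, which completes it, had one 7.37 kb away (82.5, 146.4 and 134.7), and Plin2, a coat protein of lipid droplets, one 49.1 kb away (85.8, 61.6 and 63.3). These 3 had no Mut_-Dox peak. Another gene was nearer to 3 of the 5 sites: Ints10 to that of Lpl (4.29 kb), Uvrag to that of Dgat2 (5.12 kb) and Dennd4c to that of Plin2 (29.2 kb). All 5 genes had a WT_+Dox site within 50 kb.

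Factors that hold preadipocytes back gave 2 of 19 genes. Klf2, a repressor of Pparg, had 2 missing sites, 46.4 and 34.1 kb away, and Ap1m1 was the nearest gene to both. The farther site was the higher in WT_-Dox and scored 117.3 there, 54.7 in Mut_+Dox and 56.6 in WT_+Dox_+BYK. Nr2f2, an orphan nuclear receptor, had 1 inside the gene, at 74.3, 136.5 and 156.2. AP-1 and other bZIP factors, the family of C/EBPβ itself, gave 2 of 23 genes, Fosl1 and Batf, whose sites scored 57.9 and 62.4 in WT_-Dox. The Fosl1 site lay 31.7 kb away inside Mus81, and the Batf site 36.8 kb away with Flvcr2 nearest. PARP, macrodomain and NAD genes gave 2 of 22. Macrod2, an ADP-ribose hydrolase, held 2 inside its long gene, scoring 137.4 and 62.3 in WT_-Dox, 200.8 and 75.3 in Mut_+Dox and 153.8 and 115.8 in WT_+Dox_+BYK. Nmnat2, which makes NAD, had 2 within 50 kb, of which the one inside the gene scored 51.0, 97.4 and 199.2 in those lists.

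Stress response and cell cycle genes gave 4 of 20, with 6 missing sites: 3 at Gadd45a and 1 each at Gadd45b, Myc and Trib3. The promoter site of Gadd45b printed above was its only WT_-Dox site, and the gene had no WT_+Dox site within 50 kb. Fibroblast and matrix genes gave 7 of 36. Lox, which crosslinks collagen, had 2, scoring 142.1 and 109.7 in WT_-Dox, 148.4 and 141.1 in Mut_+Dox and 171.1 and 99.1 in WT_+Dox_+BYK. The site in Fbn1, fibrillin, scored 130.0, 55.1, 139.4 and 140.2 in WT_-Dox, Mut_-Dox, Mut_+Dox and WT_+Dox_+BYK. Lamc1 and Lamb1, chains of laminin, had 1 each, and that of Lamb1 scored 60.2 in WT_-Dox, 166.3 in Mut_+Dox and 338.8 in WT_+Dox_+BYK.

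Wnt, TGF-beta and YAP pathway genes gave 6 of 28, with Cav1 and Cav2 counted for 1 shared site. Of the three-list sites near these genes 7 of 55 were missing, 12.7%, as over all three-list sites. Tcf7l2, a nuclear effector of Wnt signalling, held 2 inside the gene (61.5 and 69.1 in WT_-Dox). Wnt5b, a ligand, had 2, of which the higher in WT_-Dox lay 38.5 kb away inside Erc1. This site scored 169.5, 58.4, 77.6 and 156.7 in WT_-Dox, Mut_-Dox, Mut_+Dox and WT_+Dox_+BYK. The site in Tgfbr3, the betaglycan coreceptor, scored 73.7, 129.6, 144.2 and 153.8. Insulin and IGF signalling gave 3 of 19. Igf2r, the receptor that clears IGF2, had 1 (137.0, 93.1, 100.1 and 80.8), and Pik3ca, the catalytic subunit of PI3 kinase, had 1 with no Mut_-Dox peak (51.5, 137.4 and 196.4 in the 3 holding lists). Neither of the latter had a WT_+Dox site within 50 kb, while Igf1r did.

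Chemokines, cytokines and acute phase genes, which include known C/EBPβ targets, gave 4 of 24, each with 1 missing site and no Mut_-Dox peak at it, as at 665 of all 1092 missing sites. Near Cxcl1, a neutrophil chemokine, it lay 29.1 kb away and scored 71.0 in WT_-Dox, 153.6 in Mut_+Dox and 129.5 in WT_+Dox_+BYK. In Il1r1, the interleukin 1 receptor, it scored 84.0, 155.6 and 99.9. Near Csf1, the macrophage growth factor, it lay 27.8 kb away and scored 65.4, 126.2 and 53.4. In Cxcl12, the ligand of Cxcr4, it scored 50.4, 120.1 and 69.6. Glucocorticoid receptor targets gave 1 of 16, Sgk1, a kinase of ion transport (70.6, 69.3 and 137.8). Among markers of other cell types Hnf4a, Map2 and Mb had 1 each, and the blood markers had 0 of 12 genes. The Hnf4a site lay 19.3 kb away, with R3hdml the nearest gene.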

How the data were processed

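ChIP-seq of C/EBPβ in 3T3-L1 cells gave 1 peak list for each of 5 conditions. Bowtie, bedtools and mm10 are named in the submitters' processing notes, with no versions. Per the deposited files, peak names start with MACS. Its version and threshold, the use of inputs and the handling of the 2 replicates are not given in these sources. The score in each of the deposited lists is the authors' value per peak, and its scale is not given there.

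Peaks of all lists were merged where they overlapped by 1 bp. A site's score is the highest of its peaks in that list. Coordinates are 1-based. A site was assigned to every protein-coding gene whose span (RefSeq table of GRCm38.p6, the coordinates of mm10, without strand) lay within 50 kb of its midpoint. Promoter windows came from the RefSeq promoter table, which matched 17492 of 21887 genes, and sites on chromosome 18 stayed out of the promoter counts. Intervals are Wilson's at 95%, and those of differences Newcombe's. Neighbouring sites are not independent, so intervals are likely too narrow.

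The sites and gene lists were chosen with earlier results of these data known. Named genes are the nearest to the 10 highest- and 3 lowest-ranked missing sites by mean percentile, the 10 genes with most missing sites, up to 4 per list, a panel of 12, and up to 8 promoters. Exon, intron and UTR classes were not analysed here. Alternatives changed merging, score and width filters, list length and gene assignment. On 20000 simulated sites all 1211 planted missing sites were found. The simulated sites stood far apart, so this checked the coding of the rule and not its handling of close neighbouring peaks. The software was Python 3.11.15 with scipy 1.17.1, pandas 2.3.3, matplotlib 3.10.9 and numpy 2.4.6.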

Additional observations from a re-analysis of the deposited data

How the results depend on the processing

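No paired analysis was possible because each condition has 1 peak list without replicate numbers, and for the same reason no replicate could be left out. The alternative with a shorter window at each site's centre was not run, since no genome sequence was used. C/EBP letters stood in 23.2% of the promoter windows that missing sites overlapped by 1 bp or more, and no such share was computed for kept sites. Merging at 100 bp, widening peaks by 250 bp, using WT_-Dox peaks without merging and leaving out sites over 2 kb left every summary value near its main one. Lists of equal length and score filters hold fewer peaks, which moves counts by construction. At 6898 peaks per list there were 354 missing sites near 502 genes, 76.6% with a Mut_-Dox peak, at median percentiles of 39.2, 31.3 and 26.7 in WT_-Dox, Mut_+Dox and WT_+Dox_+BYK, and the shares lacking WT_+Dox, Mut_+Dox and WT_+Dox_+BYK were 8.21%, 7.70% and 7.05%. At 10959, chosen after seeing the data, they were 504 sites, 666 genes, 49.2%, percentiles 42.3, 34.8 and 31.0, shares 7.46%, 7.24% and 6.69%, and 6.55% of the sites lay within 1 kb of a gene end. With a score of 75 or more in every list the shares were 13.7%, 2.93% and 2.42% and the WT_-Dox percentile 30.5. With that filter on the 3 holding lists alone there were 309 sites near 411 genes, 59.5% with a Mut_-Dox peak, a WT_+Dox_+BYK percentile of 33.2 and shares of 5.16%, 4.60% and 3.91%. Within 5 kb of a gene end lay 20.5% of missing sites. A 10 kb window gave 710 genes and the nearest gene alone 955. Edge to edge, the nearest WT_+Dox peak lay a median of 30.4 kb away, or 50.5 kb counting those scoring 75 or more. Of the 47 named genes with a missing site, 11 had one at 6898 peaks per list, 29 at 10959 and 20 with scores of 75 or more. The 10 highest-ranked sites were missing under every setting but the 2 kb limit, which left 9. For the score filters and equal lengths this was largely fixed by the choice of these sites. They were picked for high scores in the holding lists, and removing WT_+Dox peaks cannot give a site one.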
